A study of Mus musculus with 54 samples.

Results

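Messenger RNA of 10 genes that mark macrophages or carry MHC class II antigen presentation was followed through the testis and ovary of adult mice. The genes were Cx3cr1, Csf1r, Lyz2, Cd68, Adgre1, Mrc1, Cd163, H2-Aa, H2-Ab1 and Cd74, taken by symbol from the count tables. All 10 were found among the 26264 entries of each tissue's table, and all 10 passed the low-count filter in every fit. The study held 54 bulk libraries in 18 groups of 3, with 9 groups per tissue. In the first generation (F1), pregnant mice and then their progeny drank water with ethanol at 0.001% (control), or with dose 1 or dose 2 of a mixture of ibuprofen, 2-hydroxyibuprofen, diclofenac and the synthetic oestrogen 17a-ethinyl-estradiol, from 8.5 days post-coitum on. In dose 1 ibuprofen stood at 11.3 ng/L, its hydroxylated form at 90 ng/L, diclofenac at 22.5 ng/L and the oestrogen at 2.25 ng/L. In dose 2 these concentrations were 113, 225, 112 and 45 ng/L. F1 males were taken at 10 weeks and F1 females at 8 weeks. The second generation (F2) carries no treatment label of its own. Its groups came from a dose 1 mother, a dose 2 mother, a dose 1 father, a dose 2 father or 2 dose 2 parents, each with a control partner where only 1 parent was dosed, and from control parents. No strain and no F2 age are given in the sources used here. The labels do not state whether the 3 libraries of a group are from different litters, and p-values here describe nothing beyond the spread among these libraries. Total counts per library, in units of 1e6, were 31.8 to 46.4 in testis and 35.6 to 102 in ovary. The tissue labels matched their markers, as the protamine gene Prm1 had at least 1799 CPM in testis and at most 0.780 CPM in ovary, and Foxl2 of granulosa cells at least 165 CPM in ovary and at most 0.131 CPM in testis.

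Macrophages of the testis lie among the Leydig cells of the interstitium and along the tubule wall, and those of the ovary lie in the stroma, around follicles and in corpora lutea. Most tissue macrophages need the receptor CSF1R, and many also carry CX3CR1, the receptor for the chemokine fractalkine. MHC class II molecules are pairs of an alpha and a beta chain that show peptides to helper T cells, and the invariant chain CD74 guides them through the cell before they are loaded. Genes of the class II pathway share an upstream module, whose Y box is bound by the factor NF-Y, and the transactivator CIITA works through it.

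That module is shown for 3 class II genes that hold the Y box, because whether class II genes move together is a question put to the data. Of these 3 only H2-Aa is a member, and H2-DMb1 was left out of the correlations below. The Y box core searched was TGATTGG, or CCAATCA on the other strand, and it is in capitals. The stretches come from RefSeq promoters on GRCm38.p6 and run 5′ to 3′ towards the gene. H2-Aa, the alpha chain of the I-A molecule, is at chr17:34287847-34287933, minus strand. H2-Eb1, the beta chain of the I-E molecule, is at chr17:34305746-34305832, plus strand. H2-DMb1, a chain of the peptide-loading molecule, is at chr17:34153068-34153154, plus strand.
H2-Aa: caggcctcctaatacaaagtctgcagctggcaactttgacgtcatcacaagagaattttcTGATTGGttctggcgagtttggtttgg
H2-Eb1: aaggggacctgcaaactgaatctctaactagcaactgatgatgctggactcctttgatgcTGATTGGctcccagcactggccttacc
H2-DMb1: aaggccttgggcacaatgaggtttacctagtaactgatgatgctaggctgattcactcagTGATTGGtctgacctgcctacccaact
The 7 letters occur in the 250 bases before the start of 8.38% of 27025 genes, among them Cd68. In the class II pathway, H2-Eb2, H2-DMb2, H2-Oa, H2-Ob, Rfx5 and Nfyc also held them. H2-DMa, Ifi30, Lgmn, Ctsl, Cd80, Rfxank, Nfya and Nfyb did not. H2-Ab1, Csf1r, Adgre1 and Cd74 were not looked at in this way.

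Lyz2, lysozyme of macrophages and other myeloid cells, has a neighbour of nearly the same sequence, Lyz1, the Paneth cell lysozyme. The 120 bases before each start, which are not part of the mRNA, are shown to let the likeness of the pair be seen. Lyz2 is at chr10:117282273-117282392, minus strand, Lyz1 is at chr10:117292869-117292988, minus strand, on GRCm38.p6, and the bases that differ are in capitals.
Lyz2: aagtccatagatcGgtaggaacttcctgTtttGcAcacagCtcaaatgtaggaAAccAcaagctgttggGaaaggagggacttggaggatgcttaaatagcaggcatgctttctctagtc
Lyz1: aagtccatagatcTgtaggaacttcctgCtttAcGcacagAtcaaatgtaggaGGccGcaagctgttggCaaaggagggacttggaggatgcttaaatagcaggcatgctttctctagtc
They were identical at 111 of 120 positions, or 92.5%. Reads could be split between the genes where the transcripts are alike, and 24 of 1217 stretches of 100 bases in Lyz2 (1.97%) also occurred in Lyz1, and no such stretch of the other 9 members occurred in another gene. The count of Lyz1 was 0.102 to 0.198 of that of Lyz2 in testis libraries and 0.112 to 0.158 of it in ovary libraries. Values of Lyz2 and Lyz1 are uncertain for that reason.

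Levels are given in CPM, the counts of a gene per 1e6 counted reads, after TMM scaling within a tissue. All 10 genes were detected in all 54 libraries, from 18 counts of Cd163 in the lowest testis library to 50122 counts of Cd74 in the highest ovary library. Per kilobase of exon, Lyz2 was the highest member in testis at 11.5 CPM per kb on average over 27 libraries. It was followed by Mrc1, the mannose receptor of many resident macrophages, at 5.70, Cd74 at 5.64 and H2-Ab1 at 5.23 CPM per kb. In ovary the order began with Cd74 at 188 CPM per kb, then Lyz2 at 131, H2-Ab1 at 46.3 and H2-Aa at 41.3. Cd163, the haemoglobin-haptoglobin scavenger receptor, was lowest in both, at 0.211 CPM per kb in testis and 0.341 in ovary.

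Between the tissues, whose tables were normalised separately, the mean CPM of Cd74 was 33.4 times as high in ovary as in testis, and that of H2-Aa 27.6 times. The ratio was 11.6 for Cd68 and 11.4 for Lyz2, 8.85 for H2-Ab1, 4.97 for Csf1r and 3.53 for Cx3cr1. Mrc1 was level, with a ratio of 0.989, as its libraries ran from 24.8 to 49.8 CPM in ovary and 25.6 to 45.1 CPM in testis. For Cd74, H2-Aa, H2-Ab1, Lyz2, Cd68, Csf1r and Adgre1 every ovary library lay above every testis library. The share of all genes that separate the tissues in this way was not computed, so whether this is particular to the members cannot be told. These ratios are a description with no test.

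Over the 9 testis groups, Cx3cr1 was highest in F2 sons of control parents and lower in every group with an exposed parent. It had 3.78, 2.92 and 4.45 CPM in the libraries of mother dose 1 and 3.04, 2.46 and 2.67 CPM in those of mother dose 2. Father dose 1 libraries had 3.56, 3.67 and 2.89 CPM, father dose 2 libraries 4.22, 3.45 and 3.12 CPM, and those with both parents at dose 2 had 1.93, 2.2 and 2.99 CPM, against 7.53, 8.65 and 6.31 CPM for control parents. None of the 15 cross libraries reached the lowest control-parent library, and neither did any of the 9 F1 libraries, which ran from 2.21 to 5.19 CPM. By edgeR's quasi-likelihood test with Benjamini-Hochberg adjustment over all genes, Cx3cr1 fell by 1.02 ± 0.19 on the log2 scale in mother dose 1 (SE; adjusted p = 0.014) and by 1.46 ± 0.19 in mother dose 2 (adjusted p = 0.00196). It fell by 1.15 ± 0.19 in father dose 1 (adjusted p = 0.0019), by 1.06 ± 0.19 in father dose 2 (adjusted p = 0.00591) and by 1.67 ± 0.19 with both parents at dose 2 (adjusted p = 0.000204). The 5 crosses were set against the same 3 control-parent libraries, so these tests are not independent. The mother dose 1 call was lost without its library A (adjusted p = 0.0687) and without control-parent library A (adjusted p = 0.0857), and the other 4 calls held in every fit that left out a library. In bulk RNA, fewer cells of a type and less RNA per cell cannot be told apart.

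Csf1r, the receptor for the growth factors CSF1 and IL-34, was likewise highest in control parents and lowest with both parents at dose 2. It had 12.4, 11.1 and 11 CPM in mother dose 1, 6.69, 7.86 and 8.02 CPM in mother dose 2 and 9.63, 8.22 and 7.47 CPM in father dose 1. In father dose 2 it had 9.07, 9.56 and 11.1 CPM and with both parents at dose 2 7.77, 7.58 and 6.68 CPM, against 13.8, 12.5 and 15 CPM for control parents. All 15 cross libraries were below the control-parent libraries, the nearest at 12.4 CPM against 12.5 CPM, while 1 of the 9 F1 libraries, at 14.0 CPM in dose 2, lay among them. Csf1r fell by 0.87 ± 0.12 on the log2 scale in mother dose 2 (adjusted p = 0.00196), by 0.70 ± 0.12 in father dose 1 (adjusted p = 0.00307), by 0.47 ± 0.12 in father dose 2 (adjusted p = 0.0322) and by 0.91 ± 0.12 with both parents at dose 2 (adjusted p = 0.000763). In mother dose 1 the log2 fold change was -0.27 ± 0.12 (adjusted p = 0.245). The father dose 2 call was lost without its library A or B (adjusted p = 0.149 and 0.124), without control-parent library A or C (adjusted p = 0.128 and 0.181) and with only the 6 libraries compared (adjusted p = 0.0644), and the other 3 calls held without any 1 library. Csf1r shares 873 of its 5774 exon bases (15.1%) with Hmgxb3 on the other strand in GENCODE M21, and Hmgxb3 itself had log2 fold changes of -0.23 to -0.17 in the 5 crosses, none past the threshold.

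**Figure D1:**
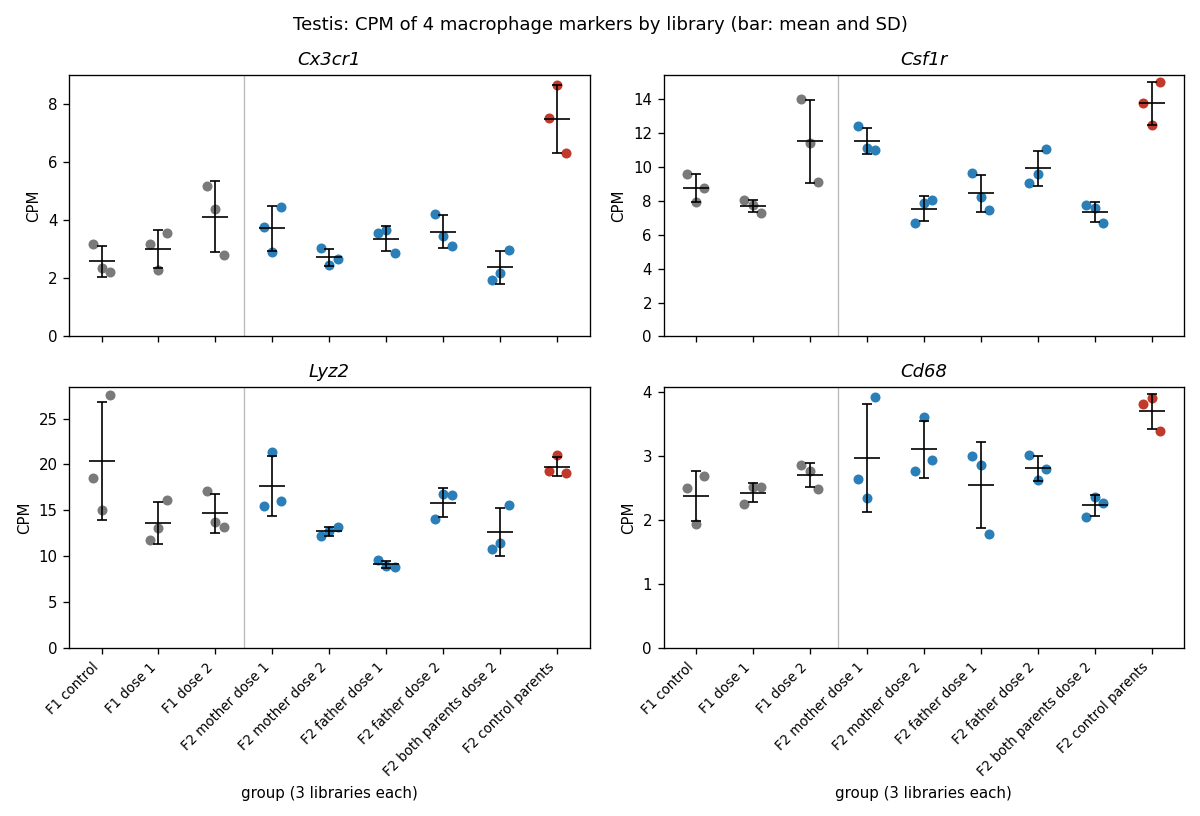
CPM (vertical axes) of Cx3cr1, Csf1r, Lyz2 and Cd68 in each testis library, by group, with 1 point per library and a bar for the mean and SD of 3. In the Cx3cr1 panel the 3 control-parent libraries at 6.31 to 8.65 CPM lie above all others, and in the Lyz2 panel father dose 1 is lowest at 8.85 to 9.60 CPM.

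Lyz2 was lowest in sons of dose 1 fathers. Its libraries held 15.5, 21.4 and 16.1 CPM in mother dose 1, 12.2, 12.7 and 13.2 CPM in mother dose 2 and 9.60, 8.94 and 8.85 CPM in father dose 1. Father dose 2 libraries held 14.0, 16.8 and 16.6 CPM and both parents dose 2 libraries 10.9, 11.4 and 15.6 CPM, against 19.3, 21.0 and 19.0 CPM for control parents. Only mother dose 1 overlapped the control-parent libraries. Lyz2 fell by 1.12 ± 0.14 on the log2 scale in father dose 1 (adjusted p = 0.000146), by 0.64 ± 0.13 in mother dose 2 (adjusted p = 0.0192) and by 0.66 ± 0.13 with both parents at dose 2 (adjusted p = 0.0115). Father dose 2 had a log2 fold change of -0.32 ± 0.13 (adjusted p = 0.143) and mother dose 1 -0.18 ± 0.13 (adjusted p = 0.485). The father dose 1 call held without any 1 library. That of both parents was lost without its library B (adjusted p = 0.0753) or control-parent library A (adjusted p = 0.058) and with only the 6 libraries compared (adjusted p = 0.117), and that of mother dose 2 held only where control-parent library B was the one left out, with adjusted p from 0.0597 to 0.0866 in the other 5 fits and 0.0605 with all 27 libraries in the fit. Lyz1 also fell in father dose 1, by 0.99 ± 0.24 (adjusted p = 0.0243), and is uncertain for the same reason as Lyz2.

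Cd68, a lysosomal membrane protein of macrophages, had 2.05, 2.37 and 2.27 CPM with both parents at dose 2, against 3.82, 3.90 and 3.40 CPM for control parents, and fell by 0.74 ± 0.20 on the log2 scale (adjusted p = 0.0437). These libraries did not overlap, but the call was lost in all 6 fits that left out a library, with adjusted p from 0.0532 to 0.16 and log2 fold changes from -0.79 to -0.66. Mother dose 1 library C, at 3.93 CPM, and mother dose 2 library B, at 3.62 CPM, reached the control-parent range. In the other 4 crosses the log2 fold change of Cd68 ran from -0.53 ± 0.20 in father dose 1 to -0.26 ± 0.20 in mother dose 2, none past the threshold.

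Adgre1 (the F4/80 antigen), Mrc1 and Cd163 passed the threshold in none of the 5 crosses by edgeR. Mrc1 had log2 fold changes from -0.25 ± 0.10 with both parents at dose 2 to -0.14 ± 0.10 in father dose 1. Its means were 34.7 ± 4.54 CPM in the lowest cross, both parents dose 2, and 41.2 ± 1.09 CPM for control parents (SD, n = 3 each). The log2 fold changes of Adgre1 lay between -0.24 ± 0.17 in mother dose 2 and 0.14 ± 0.16 in mother dose 1. Cd163 had 0.444, 0.509 and 0.553 CPM in father dose 1, against 0.659, 1.48 and 1.18 CPM for control parents, with no overlap and a log2 fold change of -1.15 ± 0.32 (adjusted p = 0.0519). By DESeq2 that difference had an adjusted p of 0.0295.

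Counted together, 1 of the 10 members passed the threshold in mother dose 1, where 0.816% of 19241 genes did in either direction. In mother dose 2 the count was 3, against 1.7% of all genes, and in father dose 1 it was 4, against 3.97%. Father dose 2 gave 2 members, against 5.33% of all genes, and both parents dose 2 gave 4, against 4.59%. All of these members were lower in the cross except H2-Ab1 in father dose 1. The median log2 fold change of the 10 members was -0.17 in mother dose 1, -0.53 in mother dose 2, -0.50 in father dose 1, -0.14 in father dose 2 and -0.20 with both parents at dose 2, where the median over all genes tested was 0.00, 0.00, -0.01, 0.00 and 0.01 in the same order of crosses.

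**Figure D2:**
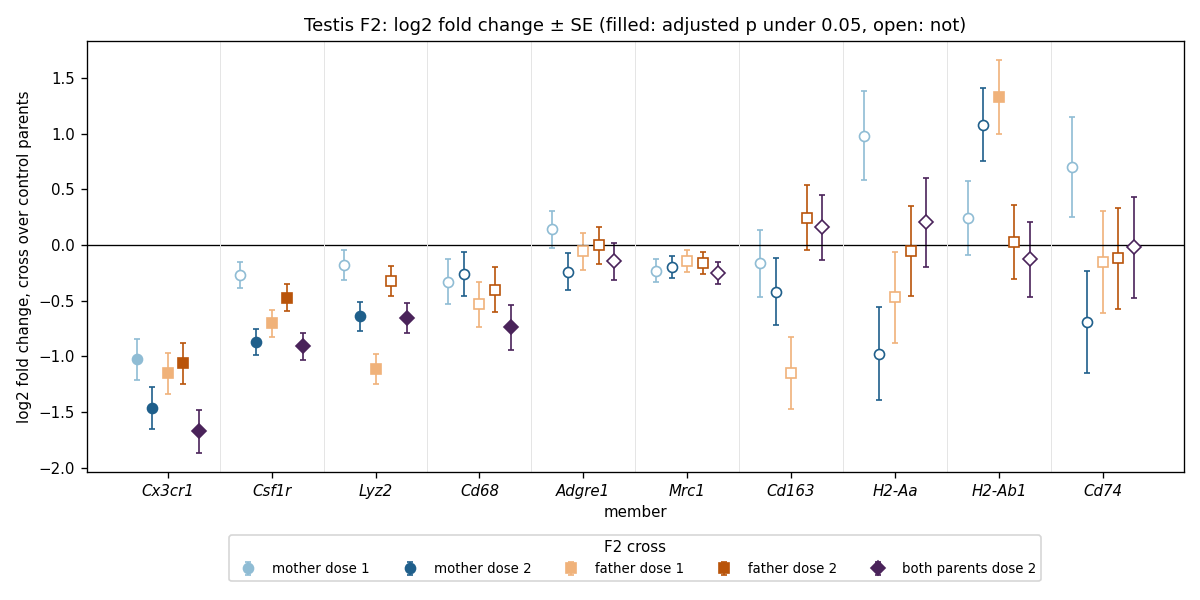
Log2 fold change with SE (vertical axis) of each of the 10 members (horizontal axis) in the 5 testis F2 crosses over control parents, filled where the adjusted p was under 0.05. Cx3cr1 is filled in all 5 crosses, from -1.67 to -1.02, while Adgre1, Mrc1, Cd163, H2-Aa and Cd74 are open throughout.

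The control-parent libraries themselves differed from the controls of the first generation. Cx3cr1 had 7.53, 8.65 and 6.31 CPM in F2 control parents, against 3.20, 2.35 and 2.21 CPM in F1 control, a log2 fold change of 1.54 ± 0.22 (adjusted p = 0.000712). Csf1r had 9.57, 7.90 and 8.74 CPM in F1 control and was higher in F2 control parents by 0.65 ± 0.13 (adjusted p = 0.00416), where the overlapping Hmgxb3 was higher too, by 0.28 ± 0.09 (adjusted p = 0.0319). Cd68, with 2.51, 1.94 and 2.7 CPM in F1 control, was higher by 0.63 ± 0.19 (adjusted p = 0.0255), a call that was lost without F1 control library B or C or F2 library A or B, at adjusted p from 0.0506 to 0.0897. These were 3 of the 10 members, where 14.5% of 19467 genes passed. Lyz2 did not follow, at 18.5, 15.1 and 27.5 CPM in F1 control and a log2 fold change of -0.04 ± 0.17 (adjusted p = 0.895). Generation cannot be told apart from whatever else separated the F1 and F2 animals and libraries.

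When the crosses were set against the F1 control libraries, a comparison added after the data were seen, no call on Cx3cr1, Csf1r, Cd68 or H2-Ab1 remained. The log2 fold change of Cx3cr1 was then 0.53 ± 0.22 in mother dose 1, 0.08 ± 0.23 in mother dose 2, 0.39 ± 0.23 in father dose 1, 0.48 ± 0.23 in father dose 2 and -0.12 ± 0.23 with both parents at dose 2. Lyz2 was still lower in mother dose 2, at -0.68 ± 0.17 (adjusted p = 0.0256), in father dose 1, at -1.16 ± 0.18 (adjusted p = 0.000684), and with both parents at dose 2, at -0.68 ± 0.17 (adjusted p = 0.0423). Against those libraries H2-Aa was also lower in mother dose 2, at -2.10 ± 0.52 (adjusted p = 0.0249), and Cd163 in father dose 1, at -1.64 ± 0.35 (adjusted p = 0.0071).

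Among the class II genes of the testis, H2-Aa and Cd74 ran together and H2-Ab1, the beta chain that pairs with H2-Aa in the I-A molecule, did not. H2-Ab1 had 16.4, 25.7 and 25.8 CPM in father dose 1, against 8.17, 13.5 and 5.23 CPM for control parents, without overlap. It rose by 1.33 ± 0.33 on the log2 scale (adjusted p = 0.0391). The call held without father dose 1 library A or control-parent library B and was lost in the other 4 fits that left out a library, at adjusted p from 0.125 to 0.145, with log2 fold changes from 1.06 to 1.77 over the 6. It was also lost with no filter on low counts (adjusted p = 0.0571), with only the 6 libraries compared (adjusted p = 0.162) and with all 27 (adjusted p = 0.178). Over the F1 control libraries the log2 fold change was 0.04 ± 0.51 (adjusted p = 0.968). In mother dose 2 it had 13.6, 20.6 and 22.9 CPM and a log2 fold change of 1.08 ± 0.33 (adjusted p = 0.104) by edgeR, again with no overlap, and an adjusted p of 0.0377 by DESeq2. H2-Aa had 2.72, 3.70 and 3.96 CPM in father dose 1 and 2.75, 1.94 and 2.59 CPM in mother dose 2, against 5.24, 2.1 and 6.99 CPM for control parents, so its libraries overlapped and its log2 fold changes were -0.47 ± 0.41 (adjusted p = 0.604) and -0.98 ± 0.42 (adjusted p = 0.228). Cd74 had 6.10, 7.61 and 8.73 CPM in father dose 1 and 6.69, 4.22 and 4.52 CPM in mother dose 2, against 9.22, 3.01 and 12.7 CPM for control parents, and passed in no cross. In mother dose 1 H2-Aa had 11.5, 4.88 and 12.1 CPM and Cd74 15.6, 6.44 and 18.7 CPM, with library B the low one for both and log2 fold changes over control parents of 0.98 ± 0.40 (adjusted p = 0.218) and 0.70 ± 0.45 (adjusted p = 0.429). The B cell genes Ms4a1 and Cd79a were near 0 in testis, at no more than 16 and 11 counts in any library. The sum of 8 dendritic cell genes was 14.6 to 16.2 CPM in father dose 1 and 16.5 to 17.6 CPM in control parents. Over the 27 testis libraries Zbtb46 averaged 9.67 CPM, Xcr1 2.82 CPM and Flt3 2.78 CPM. Clec9a and Cd209a were at 0 in 15 and 17 of these libraries. This sum thus largely reflects Zbtb46, Xcr1 and Flt3 and says little about dendritic cells.

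The count of H2-Ab1 over that of H2-Aa ran from 6.05 to 6.95 in father dose 1 and from 4.96 to 10.6 in mother dose 2, against 0.748 to 6.44 in control parents. Over the 27 testis libraries it spanned 0.726 to 10.6 with a median of 2.12. Over the 27 ovary libraries it stayed within 0.631 to 1.05, with a median of 0.728. The count of Cd74 over that of H2-Aa varied less, with a median of 1.74 and a maximum of 2.43 in testis and a median of 1.98 and a maximum of 2.61 in ovary. In the remaining crosses H2-Ab1 had 8.60, 14.7 and 8.80 CPM in mother dose 1, 11.5, 9.42 and 6.59 CPM in father dose 2 and 9.02, 7.80 and 7.94 CPM with both parents at dose 2, all overlapping the control-parent libraries. In F1 it had 5.96, 7.12 and 22.6 CPM at dose 1 and 8.20, 8.04 and 8.33 CPM at dose 2. The highest H2-Ab1 level of any testis library, 41.6 CPM, was in F1 control library C, whose group mates had 17.6 and 6.79 CPM, so that single libraries also varied widely.

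Over the 27 testis libraries, log2 CPM of H2-Aa and Cd74 gave Pearson r = 0.95 and Spearman rho = 0.93, and 0.93 for r without the 2 libraries farthest from the median of H2-Aa. H2-Aa and H2-Ab1 gave Pearson r = -0.12 and Spearman rho = -0.23, and -0.37 for r without 2. H2-Ab1 and H2-Eb1 gave Pearson r = 0.58 and Spearman rho = 0.56, and 0.49 for r without 2. By permutation test over libraries, two-sided and adjusted over the 132 relations of this kind computed, p was 8.8e-05 for r and 1.1e-04 for rho in the first pair, 0.683 and 0.394 in the second and 0.00521 and 0.0107 in the third. In ovary, H2-Aa and H2-Ab1 gave Pearson r = 0.98 and Spearman rho = 0.97 (adjusted permutation p = 8.8e-05 for r), H2-Aa and Cd74 gave Pearson r = 0.97 and Spearman rho = 0.97, and H2-Ab1 and H2-Eb1 gave Pearson r = 0.33 and Spearman rho = 0.38 (adjusted permutation p = 0.172 for r). Libraries of 1 group share their treatment, so deviations from the group means were correlated too. This gave 0.97 for H2-Aa with Cd74 and -0.01 for H2-Aa with H2-Ab1 in testis, and 0.98 for both pairs in ovary. For H2-Ab1 with H2-Eb1 it gave 0.77 in testis, above the r of 0.58, and 0.28 in ovary.

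**Figure D3:**
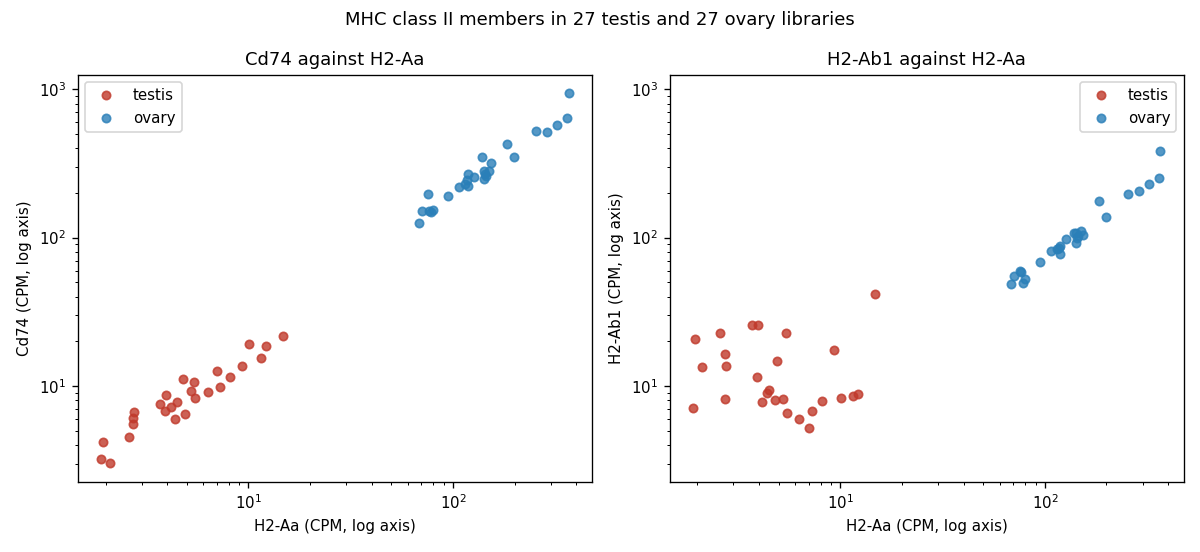
Cd74 (left) and H2-Ab1 (right) against H2-Aa in CPM on log axes, with 1 point per library of testis and ovary. Cd74 follows H2-Aa in both tissues, while H2-Ab1 follows it in ovary (r = 0.98) and not in testis (r = -0.12).

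**Figure D4:**
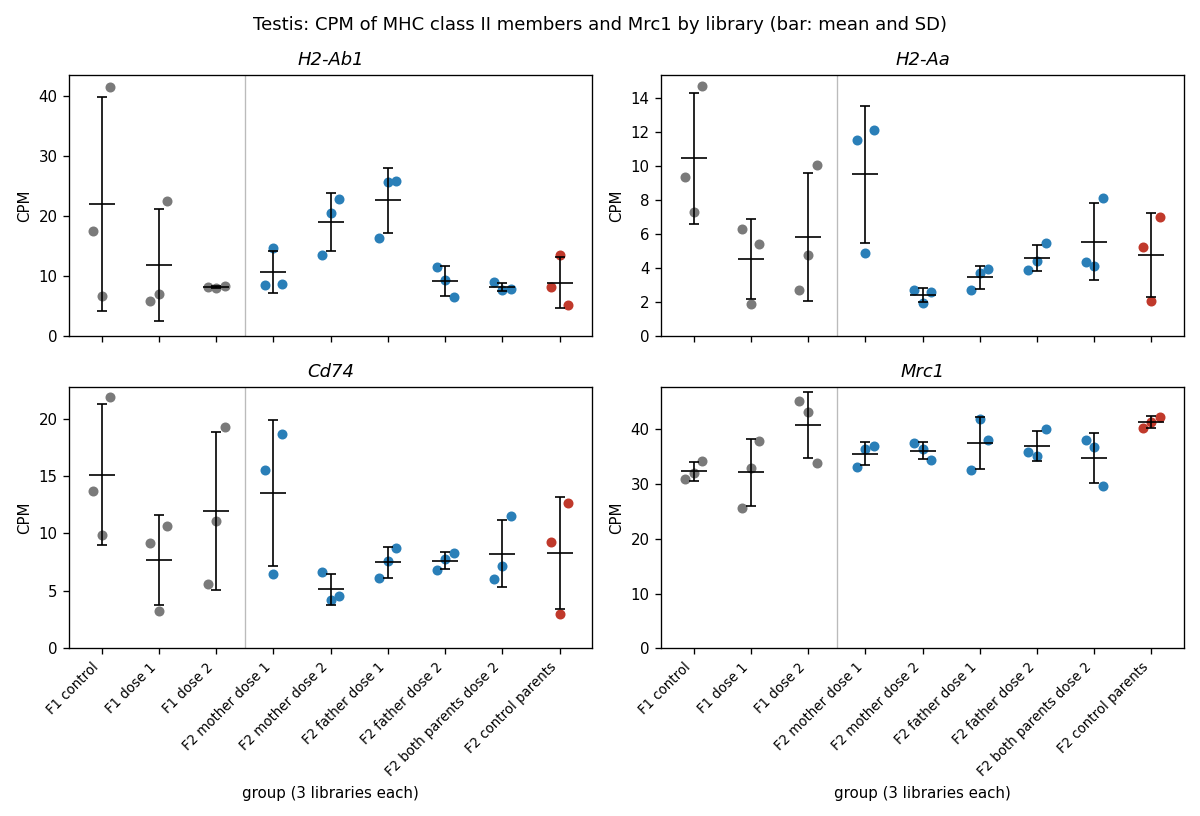
CPM (vertical axes) of H2-Ab1, H2-Aa, Cd74 and Mrc1 in each testis library, by group, with 1 point per library and a bar for the mean and SD of 3. H2-Ab1 lies above all control-parent libraries (5.23 to 13.5 CPM) in the 3 libraries of father dose 1 (16.4 to 25.8 CPM), the 3 of mother dose 2 (13.6 to 22.9 CPM), 2 of F1 control (17.6 and 41.6 CPM), 1 of F1 dose 1 (22.6 CPM) and 1 of mother dose 1 (14.7 CPM).

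Father and mother at the same dose were compared directly in 2 testis comparisons. At dose 1, Lyz2 had 9.60, 8.94 and 8.85 CPM with a dosed father, against 15.5, 21.4 and 16.1 CPM with a dosed mother. The libraries did not overlap and Lyz2 fell by 0.94 ± 0.14 on the log2 scale (adjusted p = 0.00126), in 6 of 6 fits without a library. It was the 1 member of 10 past the threshold, where 1.16% of 19241 genes passed. H2-Aa had a log2 fold change, dosed father over dosed mother, of -1.45 ± 0.41 (adjusted p = 0.117) and Csf1r one of -0.43 ± 0.12 (adjusted p = 0.0934) with edgeR, and both passed with DESeq2 (adjusted p = 0.0349 and 0.03). At dose 2, 0 of 10 members passed by edgeR or DESeq2, where 0.109% of all genes did by edgeR, although 5 had an unadjusted p under 0.05, as 7.14% of all genes did. Cx3cr1 then had a log2 fold change of 0.40 ± 0.19 (adjusted p = 0.696), Csf1r 0.40 ± 0.12 (adjusted p = 0.427) and H2-Ab1 -1.05 ± 0.33 (adjusted p = 0.485), with father dose 2 over mother dose 2.

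In testes of directly exposed F1 males, no member passed the threshold by edgeR. At dose 1 the count was 0 of 10, where 0.0317% of 18923 genes passed, with 1 member at an unadjusted p under 0.05 (8.55% of all genes) and 0 by DESeq2. At dose 2 it was 0 of 10, where 2.21% of genes passed, with 4 members at an unadjusted p under 0.05 (23.6% of all genes) and 0 by DESeq2. Cx3cr1 had 3.20, 2.35 and 2.21 CPM in control, 3.17, 2.28 and 3.56 CPM at dose 1 and 5.19, 4.39 and 2.80 CPM at dose 2, with a log2 fold change of 0.67 ± 0.26 (adjusted p = 0.151) for dose 2 over control. Csf1r had 9.57, 7.90 and 8.74 CPM in control, 8.03, 7.76 and 7.30 CPM at dose 1 and 14.0, 11.4 and 9.12 CPM at dose 2. Its libraries did not overlap between the doses, and its log2 fold change for dose 2 over dose 1 was 0.57 ± 0.15 (adjusted p = 0.111) by edgeR and 0.57 (adjusted p = 0.0181) by DESeq2. Between the doses 0 of 10 members passed by edgeR, where 0.227% of genes did, 4 had an unadjusted p under 0.05 (20.3% of all genes) and 1 passed by DESeq2. Lyz2 had 18.5, 15.1 and 27.5 CPM in control, 11.7, 13.1 and 16.1 CPM at dose 1 and 17.1, 13.7 and 13.2 CPM at dose 2, with -0.56 ± 0.21 (adjusted p = 0.521) at dose 1 and -0.47 ± 0.21 (adjusted p = 0.212) at dose 2. H2-Aa had 9.33, 7.27 and 14.7 CPM in control, 6.31, 1.90 and 5.43 CPM at dose 1 and 2.71, 4.78 and 10.0 CPM at dose 2, with control and dose 1 apart and a log2 fold change of -1.19 ± 0.56 (adjusted p = 0.623) at dose 1.

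The dose 2 effect was then compared between generations, as both parents dose 2 over control parents in F2 minus dose 2 over control in F1. The difference was -2.33 ± 0.32 (adjusted p = 0.000559) on the log2 scale for Cx3cr1, -1.29 ± 0.19 (adjusted p = 0.000751) for Csf1r, -0.91 ± 0.27 (adjusted p = 0.0326) for Cd68 and -0.57 ± 0.17 (adjusted p = 0.0354) for Mrc1. These 4 of 10 members compare with 10.6% of 19467 genes. Calls on Cx3cr1 and Csf1r held in all 12 fits that left out a library. That on Cd68 was lost without F1 dose 2 library A or B, F1 control library B, control-parent library A or both parents dose 2 library C, at adjusted p from 0.0636 to 0.0727. That on Mrc1 held in 4 of the 12, namely without F1 dose 2 library C, both parents dose 2 library A or B or control-parent library B, and had adjusted p from 0.0518 to 0.102 in the others.

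Other genes of macrophages and monocytes were read from a list of 29, of which 27 were tested in testis F2. None passed in mother dose 1 or father dose 2 in either direction. In mother dose 2, where 1.7% of all genes passed, 2 were lower, Ccr2, the receptor that brings monocytes into tissue, at -1.80 ± 0.37 (adjusted p = 0.0191), and Folr2, a folate receptor of resident macrophages, at -0.98 ± 0.24 (adjusted p = 0.0476). In father dose 1, where 3.97% passed, 7 were lower, led by Vsig4, a complement receptor of resident macrophages, with 0.222, 0.187 and 0.307 CPM against 1.42, 1.26 and 0.981 CPM for control parents and a log2 fold change of -2.35 ± 0.36 (adjusted p = 0.00141). Among the others were Lyz1, the protease Ctss, Folr2, Laptm5 and the complement gene C1qb, at log2 fold changes of -0.99 to -0.61. Vsig4 had 7 to 60 counts over the 27 testis libraries and Ccr2 had 11 to 72, so both are limited by depth. Their calls were not examined with a library left out. With both parents at dose 2, where 4.59% passed, 4 were lower, namely Ccr2 at -1.61 ± 0.37 (adjusted p = 0.0207), Laptm5, Folr2 and the pore-forming protein Mpeg1. The median log2 fold change of the 27 genes was -0.05 in mother dose 1, -0.39 in mother dose 2, -0.56 in father dose 1, -0.24 in father dose 2 and -0.47 with both parents at dose 2, beside medians over all genes of -0.01 to 0.01. In F2 control parents over F1 control the median of 28 such genes was 0.05, with 1 higher and 1 lower, where 14.5% of all genes passed.

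Of 16 genes of CSF1 and fractalkine signalling, 13 were tested, and 2 passed in the 5 crosses, both with both parents at dose 2. Csf1, the ligand of Csf1r, had 4.70, 3.94 and 3.88 CPM, against 8.32, 9.41 and 7.67 CPM for control parents, with no overlap, and fell by 1.03 ± 0.14 on the log2 scale (adjusted p = 0.00101). Irf8, a transcription factor of monocytes, fell by 1.26 ± 0.34 (adjusted p = 0.0499). Cx3cl1, the ligand of Cx3cr1, had -0.39 ± 0.16 (adjusted p = 0.168) in that cross. Of 21 further genes of class II presentation, 19 were tested. None passed in 3 of the crosses, 1 in father dose 2 (5.33% of all genes) and 2 with both parents at dose 2 (4.59% of all genes). Lgmn, a lysosomal protease, was lower in father dose 2 at -0.41 ± 0.09 (adjusted p = 0.0183) and with both parents at dose 2 at -0.34 ± 0.09 (adjusted p = 0.0363), where Ifi30, a thiol reductase of antigen processing, was lower at -0.65 ± 0.18 (adjusted p = 0.0413). H2-Eb1 had a log2 fold change of 1.12 ± 0.37 (adjusted p = 0.106) in father dose 1, which did not pass.

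Markers of some other cell types were also lower in some crosses, but not those of all types. No gene of the Sertoli cell list passed in a cross. Of the germ cell list only Dazl passed, and it was higher. It rose by 0.23 ± 0.06 in father dose 1 (adjusted p = 0.0434) and by 0.23 ± 0.06 in father dose 2 (adjusted p = 0.037), where 3.97% and 5.33% of all genes passed. The summed level of 8 Leydig cell genes was 847 to 1413 CPM in the 15 cross libraries and 1455 to 1556 CPM in control parents. Of the 8, 0 were lower in mother dose 1, 3 in mother dose 2, 4 in father dose 1, 3 in father dose 2 and 4 with both parents at dose 2, and none was higher, where 0.816%, 1.7%, 3.97%, 5.33% and 4.59% of all genes passed in the same order of crosses. In F1 control the sum was 1157 to 1203 CPM, and 3 of the 8 were higher in F2 control parents, where 14.5% of 19467 genes passed. Cyp17a1, which makes androgens, fell by 0.63 ± 0.10 with both parents at dose 2 (adjusted p = 0.00183). The sum of 6 endothelial genes was 42.7 to 50.6 CPM in the crosses and 56.6 to 64.2 CPM in control parents. That of 5 peritubular and smooth muscle genes was 64.0 to 97.0 CPM in the crosses and 92.8 to 108 CPM in control parents, which overlapped, and that of 5 leukocyte genes was 5.29 to 8.49 CPM in the crosses and 8.85 to 9.90 CPM in control parents. The sum of the 29 macrophage and monocyte genes overlapped, at 303 to 437 CPM in the crosses and 351 to 424 CPM in control parents. Aif1 alone had 206 to 398 CPM over the 27 testis libraries, so this sum largely reflects 1 gene and says little about the others. Among 8 immediate early genes, whose levels respond quickly to handling of cells and tissue, Egr1 was lower in all 5 crosses, at -2.02 ± 0.28 (adjusted p = 0.00295) in mother dose 1, -1.26 ± 0.27 (adjusted p = 0.0265) in mother dose 2, -1.39 ± 0.27 (adjusted p = 0.00965) in father dose 1, -0.97 ± 0.27 (adjusted p = 0.0483) in father dose 2 and -1.42 ± 0.27 (adjusted p = 0.0109) with both parents at dose 2. Junb was also lower in father dose 2 and with both parents at dose 2, and Ier2 in father dose 2. In father dose 2 the libraries of Egr1, Junb and Ier2 overlapped those of control parents, as did those of Junb with both parents at dose 2. The sum of the 8 was 23.3 to 29.0 CPM in the crosses and 25.7 to 49.0 CPM in control parents, which overlapped. The part of these markers in the results on Cx3cr1, Csf1r and Lyz2 was not tested.

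In ovary the members varied mainly from library to library within a group. Cd74 had 520.0, 257 and 937 CPM with both parents at dose 2, against 575, 249.8 and 151 CPM for control parents. Its libraries thus overlapped, and the log2 fold change was 0.83 ± 0.54 (adjusted p = 0.368). In the other crosses Cd74 had 282, 219 and 224 CPM in mother dose 1, 197, 242 and 153 CPM in mother dose 2, 639.7, 149 and 281 CPM in father dose 1 and 270.1, 266 and 348 CPM in father dose 2. In F1 it had 348, 318 and 125 CPM in control, 511, 261 and 230.1 CPM at dose 1 and 151, 192 and 427 CPM at dose 2. By group mean it was highest with both parents at dose 2, at 571 ± 343 CPM, and lowest in mother dose 2, at 198 ± 44.8 CPM (SD, n = 3 each), a pair of groups that was not tested. H2-Aa ran from 68.5 to 367 CPM over the 27 libraries, H2-Ab1 from 48.7 to 385 CPM and Cd74 from 125 to 937 CPM. The SD of Cd74 was a median of 46.1% of the group mean over the 9 ovary groups and 40.5% over the 9 testis groups, and that of Csf1r 23.2% in ovary and 9.53% in testis. Lyz2 had 183, 173 and 274 CPM with both parents at dose 2 and 281, 124 and 169 CPM with a dose 2 father, against 198, 74.3 and 74.6 CPM for control parents. Control-parent library A was thus the higher one for Lyz2 and for Cd74.

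Of the 120 tests of the 10 members in 12 ovary comparisons, 0 passed by edgeR and 0 by DESeq2, and 2 had an unadjusted p under 0.05. Both were of Mrc1, in father dose 2 over control parents (-0.52 ± 0.19 (adjusted p = 0.219); 15.8% of all genes) and in F2 control parents over F1 control (0.44 ± 0.21 (adjusted p = 0.351); 14% of all genes). The smallest adjusted p was 0.208. The share of all genes that passed was 0% in 8 of these comparisons, 0.00573% for father dose 2 over control parents and over mother dose 2, 0.688% for both parents dose 2 over control parents and 7.18% for the dose 2 effect between generations. Log2 fold changes lay between -0.97 and 0.95 with SE from 0.19 to 0.82. Cx3cr1, which fell in every testis cross, had 11.4, 11.6 and 19.2 CPM in ovaries with both parents at dose 2, against 21.7, 13.2 and 11.7 CPM for control parents, and a log2 fold change of -0.12 ± 0.29 (adjusted p = 0.829). The difference between the tissues was not tested. In F1 ovaries Cx3cr1 had 11.6, 13.4 and 6.94 CPM in control, 12.9, 8.10 and 12.5 CPM at dose 1 and 8.07, 14.2 and 23.1 CPM at dose 2, with overlap between all 3 groups. Csf1r had 52.6, 39.7 and 75.8 CPM with both parents at dose 2, against 68.2, 43.9 and 32.1 CPM for control parents, and a log2 fold change of 0.24 ± 0.31 (adjusted p = 0.682). Mrc1 had 32.7, 30.3 and 40.6 CPM with both parents at dose 2, against 49.8, 44.0 and 34.8 CPM for control parents, and a log2 fold change of -0.29 ± 0.19 (adjusted p = 0.354). None of the 28 macrophage and monocyte genes, 16 genes of CSF1 and fractalkine signalling or 21 class II genes tested passed in an F2 cross over control parents.

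**Figure D5:**
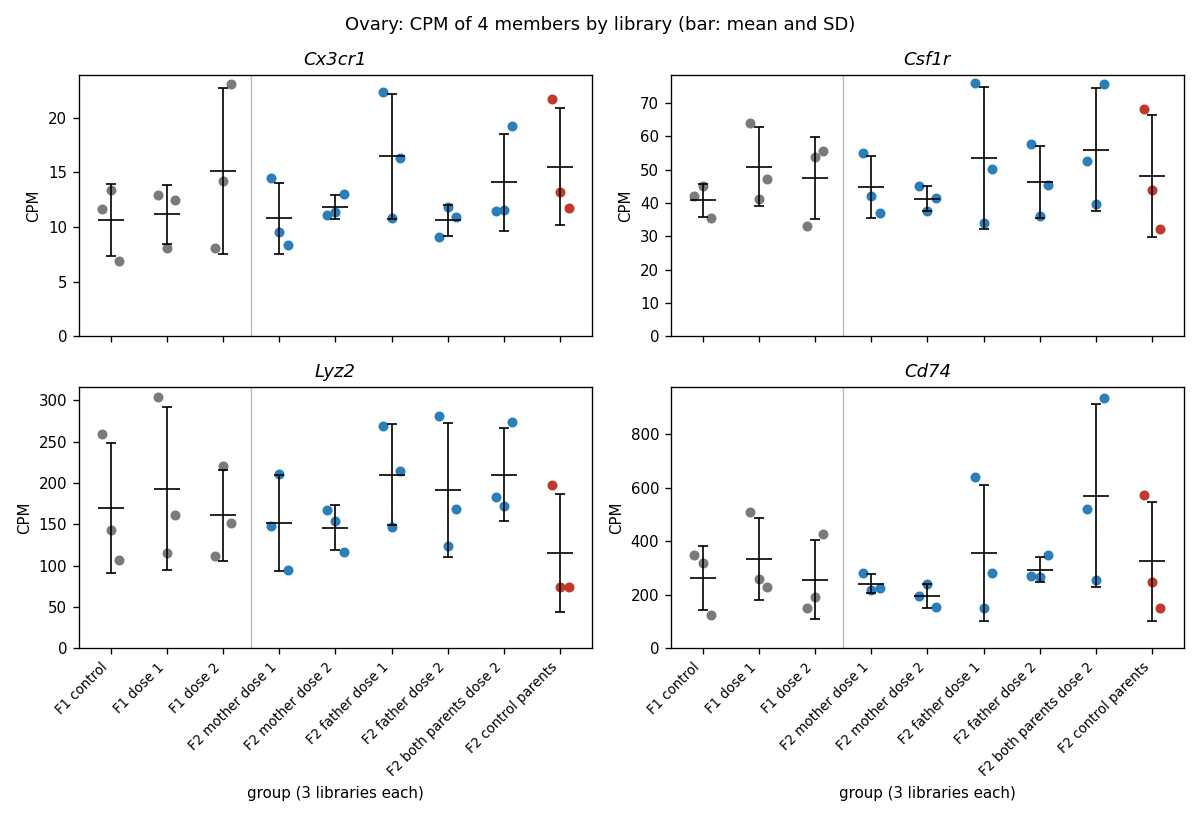
CPM (vertical axes) of Cx3cr1, Csf1r, Lyz2 and Cd74 in each ovary library, by group, with 1 point per library and a bar for the mean and SD of 3. Libraries of 1 group spread widely for all 4 genes, and both parents dose 2 library C has the highest Cd74 at 937 CPM.

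Genes whose level followed the members most closely were sought over the 27 libraries of each tissue. In ovary, the mean standardised level of the 7 macrophage members was most like Cybb, a subunit of the phagocyte oxidase (r = 0.94), then Myo1f, Nfam1, Nckap1l, Mpeg1 and Igsf6 (r = 0.92). That of the 3 class II members was most like H2-DMa (r = 0.96), then B2m, Psmb9, Casp1, H2-Q4 and Ifi47 (r = 0.92), among 13825 genes compared. In testis, the macrophage members were most like F13a1, a coagulation factor chain found in resident macrophages (r = 0.88), then Ankfn1, Ltbp1, Stab1, Robo1 and Grn (r = 0.75). The mean of the class II members there was most like Iigp1 (r = 0.84), then Prkar1b, Ccl8, Nme3, Aen and Gbp4 (r = 0.72), among 14188 genes. In testis H2-Ab1 followed neither H2-Aa (r = -0.12) nor Cd74 (r = -0.04), so that mean is not a pattern shared by the 3 members. The libraries share groups and normalisation, and these values are a description.

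Pairs among the macrophage members were read in the same way. Cx3cr1 and Csf1r gave Pearson r = 0.75 and Spearman rho = 0.69 over the 27 testis libraries (adjusted permutation p = 8.8e-05 for r), but the correlation of their deviations from group means was 0.16. In ovary they gave Pearson r = 0.72 and Spearman rho = 0.66 (adjusted permutation p = 0.00019 for r), and 0.78 for the deviations. Without the 2 libraries farthest from the median of Cx3cr1, r was 0.71 in testis and 0.67 in ovary. Csf1r and Cd74 gave Pearson r = 0.83 and Spearman rho = 0.77 in ovary and Pearson r = 0.12 and Spearman rho = 0.13 in testis (adjusted permutation p for r = 8.8e-05 in ovary and 0.683 in testis).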

How the data were processed

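Polyadenylated RNA of 27 testes and 27 ovaries was sequenced as 100 nt reads with a stranded kit, per the labels' protocols. Per the submitters' processing notes, the build was mm39, and the tools named are featureCounts 2.0.3, TopHat2 2.1.1, DESeq2 1.32.0, SAMtools 1.13, FastQC 1.19, Bowtie2 2.4.5 and bcl2fastq 2.20. For the counting step, neither strand setting nor annotation is given in the sources used here. The authors deposited raw counts per gene, 1 table per tissue. The 133 entries without a gene name stayed out, and no pair of libraries agreed within sampling noise (lowest chi-square per gene 3.24). The first letter of a cross code was taken as the father. The members and gene lists were chosen with earlier results of these data known; members were taken by name, and other genes were named from lists where they passed the threshold or as the 6 most like in pattern.

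Counts were tested with edgeR 4.0.16 (quasi-likelihood, TMM, filterByExpr with a minimum count of 10) in R 4.3.3, in fits of 9 F1, 18 F2 or all 27 libraries of a tissue, with Benjamini-Hochberg adjustment over all genes and a threshold of 0.05. This gave 24 comparisons. CPM were TMM-scaled over 27 libraries, and log2 CPM used a prior count of 2. Alternatives were DESeq2 1.42.0, RLE scaling, no filter, the replicate letter as a block, fewer or more libraries in the fit and each library left out. The procedure was tested on simulated data. Exon lengths came from GENCODE M21 (GRCm38). Libraries of the same letter, A to C, were compared by the correlation of their deviations from group means. In ovary F1 dose 1 over control it was 0.18, 0.19 and 0.34. In ovary F2 mother dose 1 over control parents it was 0.18, 0.25 and 0.09. Libraries of unlike letters were not compared, so whether the letters pair libraries was not settled.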

Additional observations from a re-analysis of the deposited data

Results flagged for a closer look

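A difference between crosses was picked out for Lyz2 in testis, which was lower with a dose 1 father than with a dose 1 mother by a log2 fold change of -0.94 in a direct test. Differences between generations were picked out where the testis effect of both parents at dose 2, over control parents, was tested against that of dose 2 over control in F1 males. This difference of log2 fold changes was -2.33 for Cx3cr1, -1.29 for Csf1r, -0.91 for Cd68 and -0.57 for Mrc1. The F2 side of each of these 4 rests on the 3 control-parent libraries.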

How the results depend on the processing

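Among single members called, other settings and fits with 1 library left out kept direction and call in 226 cases and kept the direction with the call lost in 48, and none turned the direction. Counts of testis members past the threshold, of 10, that moved by over 1.5 times follow. The share of all genes that passed under each of these settings is not given here. The counts thus show only how the calls on members moved, not how the members stood beside other genes. DESeq2 gave 1 for F1 dose 2 over dose 1 (edgeR 0) and 3 for father dose 1 over mother dose 1 (edgeR 1), where the replicate block gave 2. All 27 libraries in the fit gave 1 for F1 dose 2 over dose 1. Only the 6 libraries compared gave 1 for father dose 2 and 2 for both parents dose 2. With 1 library left out, the counts over control parents ran from 0 to 1 in mother dose 1, 2 to 5 in mother dose 2 (5 without control-parent library B), 1 to 2 in father dose 2 and 2 to 3 with both parents at dose 2, against 1, 3, 2 and 4. They ran from 1 to 2 for father dose 1 over mother dose 1 and from 2 to 4 for the dose 2 effect between generations. With F1 control in place of control parents, chosen after the data were seen, counts were 0 in mother dose 1, 2 in father dose 1, 0 in father dose 2 and 1 with both parents at dose 2. The sign then turned for Cx3cr1 in mother dose 1 (0.53), mother dose 2 (0.077), father dose 1 (0.39) and father dose 2 (0.48) and for Csf1r in father dose 2 (0.19), and the call on H2-Ab1 in father dose 1 was lost (0.042, adjusted p = 0.968), the cause of which was not tested beyond the difference between the control groups given above. The replicate block ended the call on Cd68 with both parents at dose 2 (adjusted p = 0.0551) and no other call on a member in a comparison over control parents. In ovary F1 dose 1 over control, where libraries of the same letter correlated at 0.18 to 0.34, it left the count at 0. Cd163, at 18 to 104 counts in testis, is limited by depth.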
